A study of Mus musculus with 4 samples.

Results

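The genes described here encode the interneuron peptides somatostatin (*Sst*), neuropeptide Y (*Npy*), cholecystokinin (*Cck*), galanin (*Gal*), neurotensin (*Nts*) and neuromedin U (*Nmu*), and the receptors *Sstr2*, *Npy1r*, *Cckbr* and *Galr1*. All probes that carry one of these 10 gene names on the array were taken, which gave 11 of the 39429 probes and 10 of the 30222 gene names. RNA came from the lumbar spinal cord of male ICR mice, an outbred stock, 7 days after partial sciatic nerve ligation (PSL), an injury that all mice carried. Adrenalectomized mice (ADX+PSL), which lack the adrenal source of corticosterone and drank saline, and sham-operated mice (sham+PSL) were sampled at ZT10, late in the light phase, and at ZT22, late in the dark phase. There was 1 array for each of the 4 pairings of operation and time, so the number of arrays limits the precision and no test between conditions was made. The number of mice behind each RNA and the side of the cord are not given in the sources used here, and a difference between arrays includes any difference between mice.

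Neuropeptides are cut from longer precursors in dense-core granules and act on G protein-coupled receptors. In the dorsal horn, where sensory fibres end, somatostatin, neurotensin and much of cholecystokinin are made by excitatory interneurons, and neuropeptide Y and galanin by inhibitory ones. Somatostatin, neuropeptide Y and galanin are known to inhibit neurons through SSTR2, NPY1R and GALR1, whereas cholecystokinin excites them through CCKBR. Galanin and neuropeptide Y are also known for their increase in sensory neurons after nerve injury. The comparisons address whether the mRNA of these genes in the injured cord differed with time of day and with adrenal hormones. In RNA from whole tissue, fewer cells of a type and less RNA per cell cannot be told apart.

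Each probe is a 60-base DNA oligomer. The probes of 4 peptide genes are shown because they place the measurement within the precursor's transcript, and their capitals mark the letters AAGAGA or AAGAGG, which read as a lysine and an arginine codon, the pair at which peptide precursors are cut. This is a match of letters, since the reading frame was not established here. The 4 were chosen after their sequences were seen, and coordinates are those of mm9.
*Npy* probe, chr6:49773743-49777505, plus strand, split by an intron: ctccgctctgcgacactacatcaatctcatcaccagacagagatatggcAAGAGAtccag
*Nts* probe, chr10:101944967-101945026, minus strand: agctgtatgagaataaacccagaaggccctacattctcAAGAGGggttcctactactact
*Nmu* probe, chr5:76769788-76769847, minus strand: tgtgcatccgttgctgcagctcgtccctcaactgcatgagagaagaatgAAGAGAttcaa
*Gal* probe, chr19:3411143-3411202, minus strand: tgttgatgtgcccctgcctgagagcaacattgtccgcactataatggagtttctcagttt
The *Gal* probe holds neither of these letter runs. An mRNA is counted by these probes whether or not its precursor is later cut.

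Levels are intensities in arbitrary units that the authors quantile-normalized over the 4 arrays, and a probe counts as detected where the image software flagged its spots as well above background. Of the 10 genes, 9 were well above background on all 4 arrays, and *Galr1* on 3. The error given with each log2 ratio comes from the spot error that the image software assigns, and it does not cover the spread between mice. For bright probes with a single spot it was nearly the same, 0.20 on a log2 ratio, as for *Npy*, *Cck* and *Gal*. There it acts as a fixed limit and not as a precision measured for each gene. *Cckbr* had a pair of probes, of which the brighter is used, and the other genes had 1. Levels of different genes come from different probes and are not set against each other.

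Markers of other cell types differed between the arrays. The summed level of 5 red blood cell genes was 18740 in sham+PSL at ZT22 and between 89771 and 135848 on the other arrays, and that of 8 meningeal fibroblast genes was 5359 and 5634 in ADX+PSL against 17679 and 15168 in sham+PSL. The neuronal genes measured (11) had summed levels between 421348 and 492426, and the neuronal marker *Snap25* had levels between 59511 and 63570. Among 7 sensory ganglion genes, which would mark afferent neurons, *Scn10a*, *Mrgprd*, *Avil* and *Prdm12* were not well above background on any array. *Scn11a*, with levels between 39.3 and 54.6, and *P2rx3*, with 169 to 192, were well above background on all 4 arrays, and *Trpv1* in sham+PSL at ZT10.

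**Figure D1:**
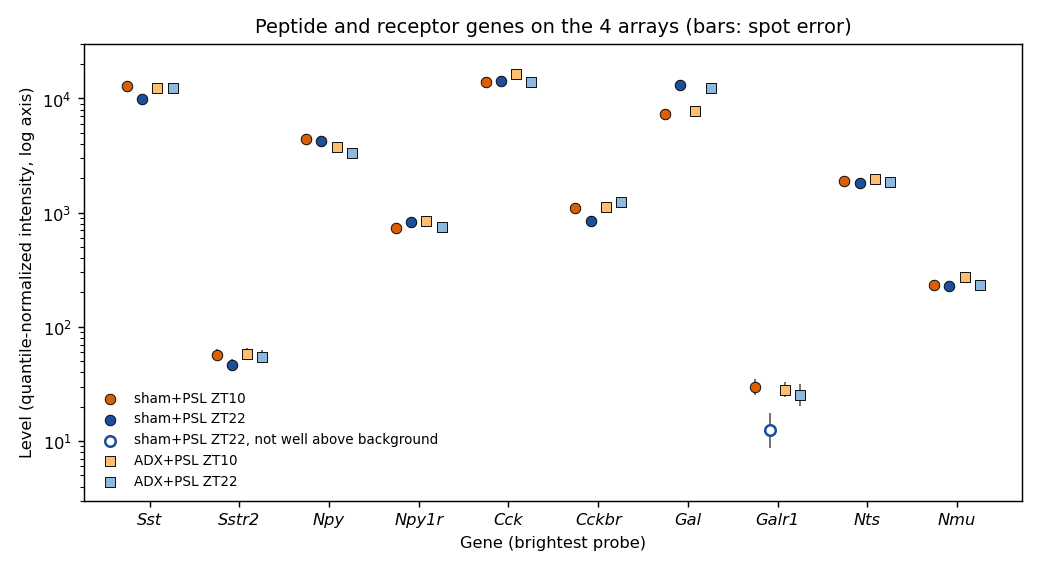
Levels of the 10 genes (quantile-normalized intensity, logarithmic axis) on each of the 4 arrays, with bars for the spot error, which are often smaller than the points. *Gal* has both ZT22 points above both ZT10 points, and *Galr1* in sham+PSL at ZT22 (open circle, 12.4) was not well above background.

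Among the 9 genes measured on all 4 arrays, *Gal* had the widest difference between the time points, and it was lower at ZT10 in both operations. The ZT10 arrays gave levels of 7316 (sham+PSL) and 7707 (ADX+PSL), and the ZT22 arrays 13046 (sham+PSL) and 12442 (ADX+PSL). Both ZT22 arrays were above both ZT10 arrays, and the arrays of 1 time point lay close together. Its log2 ratio, ZT10 over ZT22, was -0.83 ± 0.20 (spot error) in sham+PSL, a level 1.78-fold higher at ZT22, and -0.69 ± 0.20 in ADX+PSL, 1.61-fold higher at ZT22. Between these log2 ratios the difference was 0.14 with a spot error of 0.29, within the spot error. Adrenalectomized mice thus had a *Gal* difference with time in the same direction as sham-operated mice, and the log2 ratios of ADX+PSL to sham+PSL were 0.08 ± 0.20 at ZT10 and -0.07 ± 0.20 at ZT22. Over the settings of normalization and background correction, the ZT22 level of *Gal* exceeded that of ZT10 by 1.70-fold to 1.81-fold in sham+PSL and by 1.55-fold to 1.77-fold in ADX+PSL.

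A level lower at ZT10 by 1.5-fold or more in both operations was found for 160 of 20302 genes (0.788%), and among the 10 genes for *Gal*. This count was set up after the levels of *Gal* had been seen. A level higher at ZT10 by as much in both operations was found for 0.424% of genes and for 0 of the 10. Being lower on both ZT10 arrays by any amount was more common, at 14.1% of 21955 genes, and *Gal* was again the one of the 10.

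The genes whose levels ran most like those of *Gal* were sought among 19054 genes by the root mean square distance of centred log2 levels over the 4 arrays. The nearest was *Zfp758*, at a distance of 0.03, with levels of 158 and 288 at ZT10 and ZT22 in sham+PSL and 164 and 262 in ADX+PSL. *Bcl2a1d*, *4930413E15Rik*, *Ccna2* and *Gbp4* followed, at distances of 0.03 to 0.06. With 4 points, a close match is a description of these arrays.

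Part of the microglial genes, which also differ with injury, moved in the same direction as *Gal* in both operations. Of 7 microglial genes, 4 were lower on both ZT10 arrays, against 14.1% of all genes. The median log2 time ratio of the 7 was -0.41 for sham+PSL and -0.25 for ADX+PSL. In ADX+PSL, *Itgam* and *Cx3cr1* had log2 time ratios of 0.01 ± 0.20 and -0.01 ± 0.20. The summed level of the 7 genes was 81149 and 84077 at ZT10 and 102752 and 90187 at ZT22. For *Aif1*, which encodes the microglial protein Iba1, levels were 2767 and 2012 at ZT10 and 3811 and 3130 at ZT22. By staining, the study found no significant difference between time points in the number of Iba1-positive cells. The part of these cells in the *Gal* result was not tested.

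*Galr1*, an inhibitory receptor for galanin, was near the limit of detection. Both ZT10 arrays detected it, with levels of 29.8 for sham+PSL and 28.1 for ADX+PSL, and so did the ADX+PSL ZT22 array with 25.4, whereas the sham+PSL ZT22 signal of 12.4 was not well above background. Its raw signal was between 1.46 and 1.84 times the local background on the 4 arrays. Against the lowest level called well above background on that array, the ZT10 level of *Galr1* in sham+PSL was at least 1.62-fold higher. This log2 bound was 0.70 with a spot error of 0.55. At ZT22 *Galr1* was at least 1.38-fold higher in ADX+PSL than in sham+PSL, a log2 bound of 0.47, smaller than its spot error of 0.59. Its log2 time ratio in ADX+PSL was 0.14 ± 0.39. The other galanin receptors gave little signal: *Galr2* lay below the detection flag on all 4 arrays, and *Galr3* was well above background in sham+PSL at ZT10, with a level of 18.3.

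**Figure D2:**
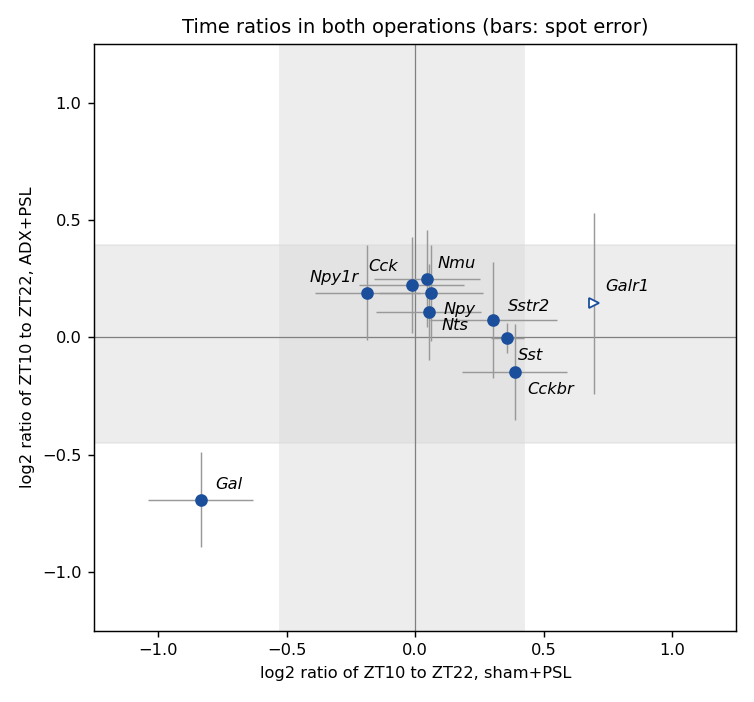
Log2 time ratio (ZT10 over ZT22) of sham+PSL (horizontal axis) against that of ADX+PSL (vertical axis) for each gene, with bars for the spot error. The bands hold 90% of all genes, and *Gal* at -0.83 and -0.69 lies below both of them; *Galr1* (open triangle) is a lower bound in sham+PSL.

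In sham+PSL, 0 of the 10 genes passed a 2-fold limit, the ratio limit of the study's methods, against 3.66% of all genes. In ADX+PSL it was 0 of the 10 against 2.78%. With 10 genes, neither count stands apart from the share of all genes. At 1.5-fold the sham+PSL pair gave *Gal* and *Galr1* against 9.05% of all genes, and the ADX+PSL pair gave *Gal* against 6.70%. The median size of the log2 time difference was 0.19 for sham+PSL and 0.17 for ADX+PSL over the genes of the set measured on both arrays, beside 0.15 and 0.14 over all genes. The middle 90% of all genes had log2 time ratios from -0.52 to 0.42 for sham+PSL and from -0.45 to 0.39 for ADX+PSL. *Sstr2*, *Galr1*, *Nts* and *Nmu* were higher on both ZT10 arrays than on both ZT22 arrays, 4 of the 10 against 16.8% of all genes, each with log2 time ratios under 2 spot errors, the bound for *Galr1* included. Over the other settings the count ran from 2 (*Sstr2* and *Galr1*, without normalization between arrays) to 6 (*Sst* and *Cck* added, with normexp background correction).

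*Sst*, made by excitatory dorsal horn interneurons that relay mechanical pain, stood lower on a single array. On the sham+PSL ZT22 array its level was 9964, against 12773 on the sham+PSL ZT10 array and 12274 and 12294 on the ADX+PSL arrays of ZT10 and ZT22. The other arrays lay close to each other. The *Sst* probe (chr16:23889776-23889835 of mm9, minus strand) was printed at 10 places on each array, so that its spot error is smaller than that of the other genes. This smaller error treats the 10 spots as independent, although they share the same RNA, and it leaves out error common to them. The 10 spots ran from 9774 to 10495 on the sham+PSL ZT22 array and from 12372 to 13330 on the sham+PSL ZT10 array. On the ADX+PSL arrays they ran from 11843 to 12785 (ZT10) and from 11886 to 12817 (ZT22). No spot of the sham+PSL ZT22 array reached the range of another array, and the coefficient of variation of the 10 spots was between 2.32% and 2.57%.

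**Figure D3:**
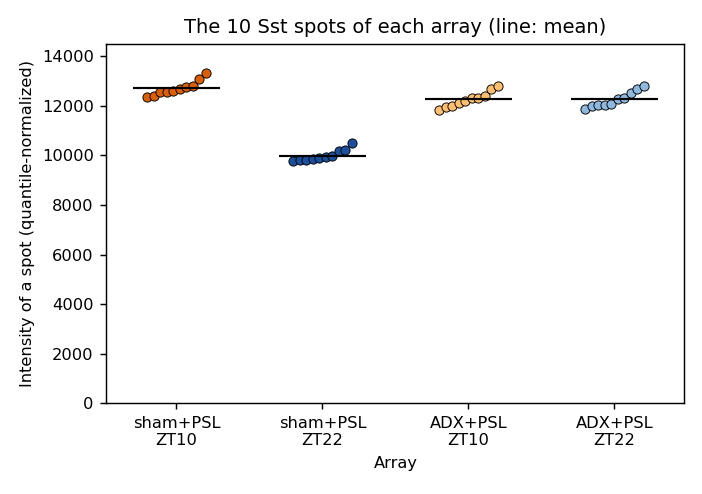
Intensity of each of the 10 *Sst* spots on the 4 arrays (vertical axis from 0, quantile-normalized intensity), with a line for the mean. The spots of sham+PSL at ZT22 lie between 9774 and 10495, below every spot of the other arrays; spots of 1 array share 1 RNA and are no replicates of a condition.

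The log2 time ratio of *Sst* was 0.36 ± 0.06 in sham+PSL, 1.28-fold, and 0.00 ± 0.06 in ADX+PSL. The difference between these time ratios was -0.36 with a spot error of 0.09, which leaves out error common to the spots of an array. With the error of 0.20 that most bright genes had, the sham+PSL ratio would be under 2 spot errors. Whether the difference exceeds the spread between mice cannot be told from 1 array a condition. Without normalization between arrays the ADX+PSL log2 ratio was -0.15, where the median of all probes stood at -0.13. Part of the interneuron markers were low on the same array. Of 13 interneuron markers, 8 were lowest on the sham+PSL ZT22 array, against 27.8% of all genes, among them the GABA-synthesizing enzymes *Gad1* and *Gad2*, the glycine transporter *Slc6a5* and the vesicular glutamate transporter *Slc17a6*. *Gad1* had levels of 4389, 3738, 4427 and 4822 in the order sham+PSL ZT10, sham+PSL ZT22, ADX+PSL ZT10, ADX+PSL ZT22. *Slc17a6* had 5637, 4897, 5537 and 6088 in that order. Other markers went the other way, and *Rorb*, *Maf* and *Calb1* had their highest level on that array. Of the 11 general neuronal genes, 3 were lowest there and 7 on the ADX+PSL ZT22 array, and of 6 motor neuron genes 0 were lowest there. The median log2 time ratio of the 13 markers was 0.20 for sham+PSL and 0.02 for ADX+PSL. Of 5 markers of cord level, *Hoxa9* and *Hoxa10* had log2 time ratios of 0.02 ± 0.20 each in sham+PSL, and the others differed on this array. The lumbar gene *Hoxd10* had a level of 806 there and between 1090 and 1132 on the other arrays, and *Hoxc10* had 1552 there and between 1847 and 2052 elsewhere, whereas the more rostral *Hoxc8* had its highest level there, with 60.5 to 88.0 elsewhere. The part of these markers in the *Sst* result, and that of the low red blood cell genes of the same array, was not tested.

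*Sstr2* encodes a somatostatin receptor that opens potassium channels. Its levels were 57.2 and 46.3 at ZT10 and ZT22 in sham+PSL and 57.9 and 55.0 in ADX+PSL, and its lowest value was again that of sham+PSL at ZT22. The log2 time ratio was 0.30 ± 0.25 for sham+PSL and 0.07 ± 0.25 for ADX+PSL. Of the related genes, *Sstr3* had levels of 1183 (ZT10) and 572 (ZT22) on the ADX+PSL arrays, a ratio of 2.07, and 680 and 726 on the sham+PSL arrays. *Cort*, which encodes the related peptide cortistatin, had levels of 310, 242, 370 and 341, in the same order as for *Gad1*.

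*Npy*, made by inhibitory interneurons that restrain mechanical pain, was lower on both ADX+PSL arrays. Its level was 4442 and 4256 at ZT10 and ZT22 in sham+PSL and 3777 and 3310 in ADX+PSL. The operations did not overlap, and the ADX+PSL ZT22 array had the lowest level. The log2 ratio of ADX+PSL to sham+PSL was -0.23 ± 0.20 at ZT10 and -0.36 ± 0.20 at ZT22, each less than 2 spot errors. Lower on both ADX+PSL arrays were 14.8% of all genes and 1 of the 10. So were all 8 meningeal fibroblast genes, with a median log2 ratio of -1.85 at ZT10 and -1.96 at ZT22, and their part in the *Npy* result was not tested. *Npy1r*, the receptor on excitatory interneurons through which neuropeptide Y acts, had levels of 732 and 833 for sham+PSL and 851 and 745 for ADX+PSL, with no order by operation or time. *Npy2r* had levels between 101 and 128 and *Npy5r* between 142 and 194.

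*Cckbr*, the cholecystokinin receptor of the nervous system, was higher on both ADX+PSL arrays on its brighter probe. Its level was 1100 and 841 at ZT10 and ZT22 in sham+PSL and 1127 and 1248 in ADX+PSL. The sham+PSL ZT22 array was the low one, and the ADX+PSL ZT10 array lay close to sham+PSL at ZT10. The log2 ratio of ADX+PSL to sham+PSL was 0.03 ± 0.20 at ZT10 and 0.57 ± 0.20 at ZT22, the latter 1.49-fold. The dimmer probe, with levels of 41.6 and 30.0 for sham+PSL and 41.2 and 29.6 for ADX+PSL, had a log2 ratio of -0.02 ± 0.34 at ZT22. At ZT22 only the brighter probe was thus higher in ADX+PSL. Both were higher at ZT10 in sham+PSL, with log2 ratios of 0.39 ± 0.20 and 0.47 ± 0.29. In ADX+PSL the log2 time ratios of the brighter and the dimmer probe were -0.15 ± 0.20 and 0.47 ± 0.31, opposite in sign. The dimmer probe's raw signal was between 1.84 and 2.17 times the local background, so whether the probes disagree cannot be told. Higher on both ADX+PSL arrays were 17.4% of all genes, and *Cckbr* was not among them with the mean over its probes or without normalization between arrays.

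*Cck*, the ligand, had levels of 14062 and 14199 for sham+PSL and 16372 and 14026 for ADX+PSL at ZT10 and ZT22, and the ADX+PSL ZT10 array was the highest. Its log2 ratios lay between -0.02 and 0.22. *Cckar*, the receptor better known from the gut, had levels of 55.8 and 33.7 in sham+PSL, a ratio of 1.66, and 47.6 and 42.8 in ADX+PSL.

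*Nts*, an excitatory interneuron peptide, was the steadiest of the set. Its level was 1884 and 1817 at ZT10 and ZT22 in sham+PSL and 1983 and 1842 in ADX+PSL, a range of 1.09-fold over the 4 arrays. Of its receptors, *Ntsr1* had levels between 234 and 342, and *Ntsr2* was higher at ZT22, with 19488 and 23276 for sham+PSL and 21050 and 28359 for ADX+PSL. *Nmu* had levels of 234 and 227 for sham+PSL and 275 and 232 for ADX+PSL, with log2 time ratios of 0.05 ± 0.21 and 0.25 ± 0.21. Its spinal receptor *Nmur2* had levels of 175 and 140 for sham+PSL and 176 and 128 for ADX+PSL.

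**Figure D4:**
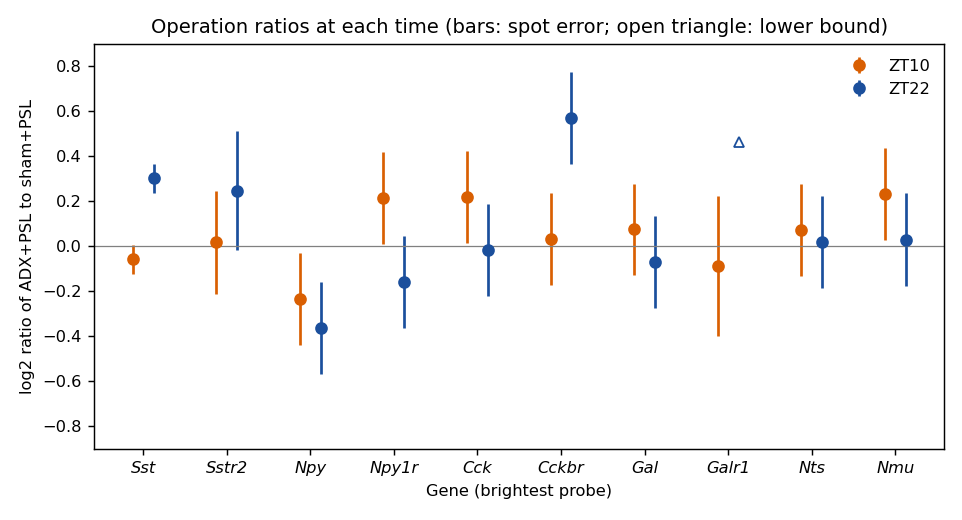
Log2 ratio of ADX+PSL to sham+PSL for each gene at ZT10 and at ZT22, with bars for the spot error and an open triangle for a lower bound. *Npy* lies below 0 at both times, and *Cckbr* reaches 0.57 at ZT22 and 0.03 at ZT10.

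Between the operations, 0 of the 10 genes passed 2-fold at ZT10, against 3.82% of all genes, and 0 of 10 at ZT22, against 3.29%. At 1.5-fold it was 0 of 10 at each time, against 9.78% and 8.64%. The median size of the log2 difference between operations was 0.08 at ZT10 and 0.16 at ZT22, where all genes had 0.14 and 0.15. At ZT22, *Sst* (0.30 ± 0.06) and *Cckbr* differed by more than 2 spot errors, both with sham+PSL at ZT22 as the low array. For *Sst* this rests on the smaller error of its repeated spots, and with an error of 0.20 it would not hold. Of the 9 genes measured on all arrays, 5 had their lowest level on that array (*Sst*, *Sstr2*, *Cckbr*, *Nts* and *Nmu*), where 27.8% of all genes did. The ZT22 log2 ratios of ADX+PSL to sham+PSL were 0.25 ± 0.26 for *Sstr2*, 0.02 ± 0.20 for *Nts* and 0.03 ± 0.21 for *Nmu*, each within the spot error. The dimmer *Cckbr* probe was lowest in ADX+PSL at ZT22. The 2 comparisons that use this array share its sample.

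Among 21 related peptides and receptors with a probe, 17 were well above background on at least 1 array. Past 2-fold were 0 of 17 with time in sham+PSL, 1 of 16 in ADX+PSL (*Sstr3*), 0 of 17 between operations at ZT10 and 0 of 15 at ZT22. The other neuropeptides, 11 genes, held 0 past 2-fold in each of the 4 comparisons. *Cartpt*, the precursor of the CART peptide, was higher at ZT10 in both operations, with levels of 3658 and 2587 for sham+PSL and 3993 and 2792 for ADX+PSL. *Vip*, which encodes vasoactive intestinal peptide, was lower on both ADX+PSL arrays, with 141 and 170 for sham+PSL and 84.1 and 108 for ADX+PSL.

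Of the 15 genes for granule proteins and precursor processing, *Pam* had the widest difference with time. It encodes the enzyme that amidates the C-terminus of peptides, a step that neuropeptide Y, cholecystokinin, galanin and neuromedin U need. Its level was 2734 at ZT10 and 1469 at ZT22 in sham+PSL and 2627 and 1431 in ADX+PSL, so that both ZT10 arrays were above both ZT22 arrays. Its log2 time ratio was 0.90 ± 0.20 for sham+PSL and 0.88 ± 0.20 for ADX+PSL, the opposite direction to *Gal*. *Pam* was the only one of the 15 past 1.5-fold with time. Higher on both ZT10 arrays were 8 of the 15, against 16.8% of all genes, and 6 without normalization between arrays. So were 7 of the 11 general neuronal genes and 5 of the 11 other neuropeptides, so that this was not particular to the 15. Among the 8, only *Pam* had log2 time ratios past 2 spot errors in both operations. The median log2 ratio of the 15 was 0.14 for sham+PSL and 0.13 for ADX+PSL. The convertase gene *Pcsk1* had log2 ratios of 0.41 ± 0.20 and 0.30 ± 0.20, and *Pcsk2* of 0.24 ± 0.20 and -0.16 ± 0.20.

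**Figure D5:**
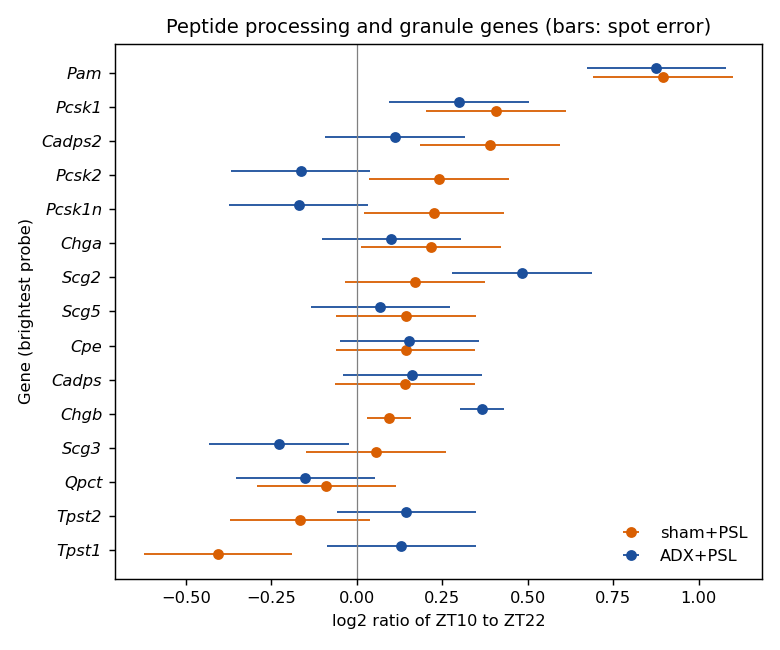
Log2 ratio of ZT10 to ZT22 of 15 peptide processing and granule genes in sham+PSL and ADX+PSL, with bars for the spot error. *Pam* lies at 0.90 and 0.88, apart from the other genes.

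Among 8 peptidase genes, *Dpp4*, which cuts neuropeptide Y near its N-terminus, had the widest range. The ZT22 arrays gave levels of 110 (sham+PSL) and 33.0 (ADX+PSL), whereas at ZT10 the level was 15.5 in ADX+PSL and the sham+PSL signal was not well above background. It was at least 7.41-fold higher at ZT22 in sham+PSL and 2.13-fold higher in ADX+PSL. *Ece1*, which breaks down somatostatin and other peptides, had levels of 219 and 109 in sham+PSL, a ratio of 2.01, and 117 and 106 in ADX+PSL.

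Promoter sequence, as the 250 bases before and 50 after the RefSeq start on GRCm38.p6, was at hand for 9 of the 10 genes, all but *Galr1*, and was searched on both strands for binding motifs of factors that follow cAMP, the clock or glucocorticoids. The cAMP response element TGACGTCA was found in *Sst* and *Sstr2*, a peptide and its receptor, against 1.79% of 32851 promoters. The E-box CACGTG, bound by clock factors, was found in *Cck*, *Cckbr* and *Nmu*, against 7.15%. The D-box TTATGTAA (0.938% of promoters) and the full palindromic glucocorticoid response element (0.00913%) were found in 0 of the 9. Shorter and other motifs were searched too. TGACG, which is part of the cAMP response element, was found in 6 of the 9 against 20.8%, and TGACTCA in 3 against 5.20%. TGTTCT, part of the glucocorticoid element (19.0%), TATAAA (13.6%) and TTCNNNGAA (8.30%) were found in 0 of the 9.

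The 80 bases before the start are shown for the pair with the cAMP response element, for *Cck* with its E-box, and for *Gal*, which had the widest time difference, with the motif in capitals where one of the 4 full motifs is present. These stretches were chosen after the matches were seen.
*Sst*, chr16:23890845-23890924, minus strand: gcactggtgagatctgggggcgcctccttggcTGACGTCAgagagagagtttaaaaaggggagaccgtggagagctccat
*Sstr2*, chr11:113619247-113619326, plus strand: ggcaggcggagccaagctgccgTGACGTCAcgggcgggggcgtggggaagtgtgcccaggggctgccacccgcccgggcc
*Cck*, chr9:121495695-121495774, minus strand: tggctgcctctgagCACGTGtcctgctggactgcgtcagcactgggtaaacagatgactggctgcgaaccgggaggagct
*Gal*, chr19:3414545-3414624, minus strand: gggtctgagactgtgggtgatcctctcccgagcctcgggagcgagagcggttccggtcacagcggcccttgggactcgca
The first base of the motif lies 48 bases before the start in *Sst*, 58 in *Sstr2* and 66 in *Cck*. A match of letters is no evidence of binding, and no binding was measured here.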

How the data were processed

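Spinal RNA was labelled with Cy3 and hybridized to 1-colour Agilent mouse arrays, 1 for each condition, all 4 on 1 slide. The authors deposited spot intensities with flags and spot errors, background-corrected by Feature Extraction (version 10.7.1.1 in the file headers and 9.5.1.1 in the submitters' processing notes), and a table of intensities quantile-normalized over the 4 arrays. That table matched a quantile normalization of the deposited intensities computed here, so its scale and direction are known. There were 43020 spots apart from controls and 0 saturated spots.

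Levels come from the table, and a gene was taken at the probe with the highest mean level. Ratios were formed where both arrays were well above background. Where 1 was not, a lower bound was formed from the higher of its own signal and the lowest level well above background on that array. No test between conditions was made, since each has 1 array. All 10 genes were named, and from the other lists genes past 2-fold, defining markers and counts. Related genes named besides these, such as *Npy2r*, *Cartpt* and *Vip*, were chosen after their values were seen. The members and lists were chosen with earlier results of these data known. R 4.3.3 with limma 3.58.1 and Python 3.11.15 with pandas 2.3.3 were used. The steps were tested on simulated data. Alternatives were normexp background correction (offset 50), no normalization between arrays, shifting each array's 75th percentile, normalizing only the arrays compared, no outlier spots, other filters and limits, and other uses of probes.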

Additional observations from a re-analysis of the deposited data

How the results depend on the processing

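Of 228 log2 ratios of the 10 genes recomputed under other normalizations, background corrections or spot filters, 225 moved by less than the spot error and 3 moved by more, all of them *Sst* without normalization between arrays: -0.15 with time in ADX+PSL, -0.13 between operations at ZT10 and 0.43 between operations at ZT22. Without normalization the median of all probes shifted by -0.13 with time in ADX+PSL and by 0.19 between operations at ZT22. The spot error of these *Sst* ratios was 0.06, and ratios of other genes moved as far within their larger errors. With normexp, *Npy1r* with time in ADX+PSL went from 0.19 to -0.004, with a spot error of 0.20. *Sstr2* between operations at ZT22 went from 0.25 to 0.07, with a spot error of 0.26.

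Of 82 counts of the 10 genes, 67 were equal to those of the report, 6 changed within 1.5 times and 9 by more. Without a filter on background, *Galr1* passed 2-fold with time in sham+PSL and between operations at ZT22, a count of 1 in each. At 1.5-fold the counts with time were 2 in sham+PSL and 1 in ADX+PSL. The count higher on both ADX+PSL arrays, 1 in the report (*Cckbr*), was 2 after a shift by the 75th percentile (*Cckbr* and *Nmu*), 3 without normalization (*Cck*, *Nts* and *Nmu*) and 0 with the mean over a gene's probes. The count lower on both ZT10 arrays was 2 with normexp background correction (*Npy1r* and *Gal*), and that higher on both ZT10 arrays, 4 in the report, was 2 without normalization (*Sstr2* and *Galr1*). The latter was 3 after a shift by the 75th percentile or with all 4 arrays required above background, 5 with the processed signal, without outlier spots or with the mean over probes, and 6 with normexp, as *Sst*, *Cck* or *Cckbr* joined and *Nts*, *Nmu* or *Galr1* dropped out. The cause was not tested. The counts at 1.5-fold in both operations, added after the data were seen, were the same under each of 5 settings. Under these settings, also added later, 6 to 8 peptide processing genes were higher on both ZT10 arrays and 7 to 9 interneuron markers were lowest on the sham+PSL ZT22 array.

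No analysis paired by replicate was made, since each condition had 1 array and the sample titles give no replicate number. No array was left out of a comparison, since each condition had 1. An additive fit of operation and time, which would leave 1 residual degree of freedom, was not run. Signal over background limits *Galr1*, *Sstr2* and the dimmer *Cckbr* probe, whose raw signals were under 3 times the local background.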
